A study of Mus musculus with 27 samples.

Results

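The 10 genes described here are a set used to recognise GABAergic interneurons and their precursors in the fetal forebrain, namely Gad1, Gad2, Slc32a1, Dlx1, Dlx2, Dlx5, Dlx6, Lhx6, Lhx8 and Sp8. They were picked by symbol from a read-count table of 55416 genes, and all 10 were found in it. All 10 had enough reads to be tested in each of the 16 comparisons made across genes.

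The study followed brain development in mouse strains that differ in lifespan. RNA was sequenced from whole fetal brain at 3 gestational ages, d12, d15 and d17, where the day of the vaginal plug is d1, with 3 libraries per strain and day and 27 in all. C57BL/6J is the long-lived inbred strain and AKR/J is a short-lived inbred strain. Cav1-null (B6.Cg-Cav1tm1Mls/J) is a short-lived congenic strain that carries the Cav1tm1Mls allele of caveolin 1. Timed pregnancies were set up within each strain from mice approximately 8 weeks old, the labels name no treatment, and every fetus was labelled female. Because each library is a whole brain, fewer cells of a type and less RNA per cell cannot be told apart. The interval from d12 to d15 is called the early phase and that from d15 to d17 the late phase, as in the study.

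GABAergic interneurons use the inhibitory transmitter GABA. The enzymes encoded by Gad1 and Gad2 make GABA from glutamate, and the vesicular transporter encoded by Slc32a1 loads it into synaptic vesicles. Forebrain interneurons are born in the ganglionic eminences of the ventral telencephalon, where the homeobox factors Dlx1, Dlx2, Dlx5 and Dlx6 direct their differentiation and migration. Lhx6 marks cells that come from the medial ganglionic eminence, its relative Lhx8 acts there in cholinergic and GABAergic neurons, and the zinc finger factor Sp8 marks cells of the caudal and lateral eminences and of the olfactory bulb. Gad1, Gad2 and Slc32a1 are also used by GABAergic neurons of the midbrain, hindbrain and cerebellum, and Dlx5 and Dlx6 act in the skeletal precursors of the face as well.

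Of the 10 genes, 6 lie on chromosome 2 of the GRCm39 assembly. They are Gad2 (22511862-22583886), Lhx6 (35971964-35995601, minus strand), Gad1 (70383416-70432372), Dlx1 (71358457-71364325), Dlx2 (71373752-71377102, minus strand) and Slc32a1 (158452605-158464883). Dlx1 and Dlx2 stand 0.0094 Mb apart with their 3′ ends facing each other, and Gad1 lies 0.93 Mb from Dlx1. The other Dlx pair, Dlx6 (6862989-6868568) and Dlx5 (6877804-6882092, minus strand), is 0.0092 Mb apart on chromosome 6, where Dlx5 lies 10.42 Mb from Cav1 (17306140-17341451). Lhx8 is on chromosome 3 (154011931-154036296, minus strand) and Sp8 on chromosome 12 (118810064-118816311). Antisense genes cover the whole of Dlx1 (Dlx1as, 71346798-71369624, minus strand) and the whole of Dlx6 (Dlx6os1, 6749740-6871632, minus strand). Whether reads were counted by strand is not given in the sources used here, so the counts of Dlx1 and Dlx6 are uncertain where the antisense RNA is present.

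Promoter sequences are shown for Dlx1 and Dlx2, which neighbour each other and yet differed in the strain comparisons on d15, and for the first listed start of Dlx6os1, whose splicing is described at the end. They come from RefSeq, run from 250 bases before to 50 bases after a start, and carry GRCm38.p6 coordinates. The table held 12 promoters for 8 of the 10 genes. Capitals mark CACGTG, the E-box core, in Dlx2 and TAATTA, the core bound by homeodomain factors, in Dlx6os1.
Dlx1, chr2:71529195-71529494, plus strand: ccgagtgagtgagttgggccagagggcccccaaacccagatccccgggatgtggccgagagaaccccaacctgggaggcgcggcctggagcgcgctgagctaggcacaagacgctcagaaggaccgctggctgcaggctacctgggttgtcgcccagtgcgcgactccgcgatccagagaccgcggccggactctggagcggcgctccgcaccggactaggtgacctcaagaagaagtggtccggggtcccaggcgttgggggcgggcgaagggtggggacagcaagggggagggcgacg
Dlx2, chr2:71546705-71547004, minus strand: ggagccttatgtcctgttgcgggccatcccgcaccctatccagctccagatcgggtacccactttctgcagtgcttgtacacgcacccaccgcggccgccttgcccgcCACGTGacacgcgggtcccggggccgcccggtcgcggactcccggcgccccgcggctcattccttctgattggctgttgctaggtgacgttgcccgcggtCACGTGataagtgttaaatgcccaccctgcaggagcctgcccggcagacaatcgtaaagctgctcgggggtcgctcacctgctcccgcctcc
Dlx6os1, chr6:6869484-6869783, minus strand: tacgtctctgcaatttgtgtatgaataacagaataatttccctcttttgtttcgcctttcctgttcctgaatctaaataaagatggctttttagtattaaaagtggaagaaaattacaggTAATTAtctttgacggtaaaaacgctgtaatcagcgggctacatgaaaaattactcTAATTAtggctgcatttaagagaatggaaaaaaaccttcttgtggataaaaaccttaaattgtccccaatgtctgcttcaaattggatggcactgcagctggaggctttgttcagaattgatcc
The Dlx1 and Dlx2 windows were rich in G and C, at 69.3% and 66.3%, with 27 and 29 CpG dinucleotides, where the median of 32851 mouse promoters was 52.7% and 7 CpG. The Dlx6os1 window held 35.7% G and C. CACGTG was found, on either strand, in 1 of the 12 promoters of the 10 genes (Dlx2, 2 copies) and in 7.15% of all promoters. TAATTA was found in 1 of the 12 (the third Sp8 start) and in 5.29% of all promoters, CAGCTG in 1 of the 12 (the first Lhx6 start) and in 16.3%, and TATAAA in 3 of the 12 and in 13.62%. Copies of TAATTA at 2 or more places, as in the Dlx6os1 window, occurred in 0.49% of all promoters. A match is a run of letters and not a measured binding site.

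The libraries held between 26363697 and 39759702 reads assigned to genes. Values below are counts per megaread of library size (CPM), with library sizes adjusted by edgeR's trimmed mean of M-values. Cav1, the targeted gene, averaged 0.0928, 0.0867 and 0.376 CPM on d12, d15 and d17 in the Cav1-null libraries and between 12.0 and 35.7 CPM in the groups of the other strains. The AKR/J d12 libraries stood apart through red blood cell genes, with 34400 to 202000 CPM summed over 14 erythroid genes against 1930 to 4750 CPM in C57BL/6J and 4000 to 5470 CPM in Cav1-null on that day.

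On d12, the third library of each strain was low in the genes of the ventral forebrain. It was the lowest of its group in 28 of 30 gene and strain combinations, namely in 8 of 10 genes in AKR/J and 10 of 10 in each of the other strains. Lhx6 in the third library reached 11.7% (AKR/J), 20.1% (C57BL/6J) and 17.0% (Cav1-null) of the mean of the other 2 libraries. Dlx2 reached 14.4%, 27.3% and 17.9% in the same order. By comparison, Gad1 reached 76.6%, 50.7% and 72.8%, and Gad2 reached 75.9%, 60.6% and 59.1%. Lhx6 and Dlx2 were thus lower, in proportion, than both genes for GABA synthesis in these 3 libraries. Lhx8 had 0 reads in the AKR/J library. There 3 reads, an approximate upper limit for a count of 0, would be 0.105 CPM by the unadjusted library size.

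Genes of the dorsal and ventral telencephalon that are not members were low in the same libraries. Tbr1, a factor of cortical glutamatergic neurons, was at 0% (AKR/J), 26.7% (C57BL/6J) and 9.98% (Cav1-null) of the mean of the other 2 libraries, and Nkx2-1, a factor of the medial ganglionic eminence, at 20.3%, 27.4% and 19.0%. Slc17a6, the glutamate transporter of neurons outside the cortex, was at 98.9%, 84.2% and 79.9%. Summed over 16 craniofacial and oral ectoderm genes, the third library held 528 CPM against 166 and 267 CPM in C57BL/6J, 458 against 85.6 and 72.3 CPM in Cav1-null, and 446 against 487 and 304 CPM in AKR/J. Genes of GABAergic neurons of the midbrain, hindbrain and cerebellum summed to 514 CPM in the third AKR/J library against 205 and 319 CPM, to 317 against 208 and 273 CPM in Cav1-null, and to 485 against 221 and 480 CPM in C57BL/6J. Whether these libraries held less telencephalon was not tested. Counts of called genes that rest on d12 are given with and without them.

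**Figure D1:**
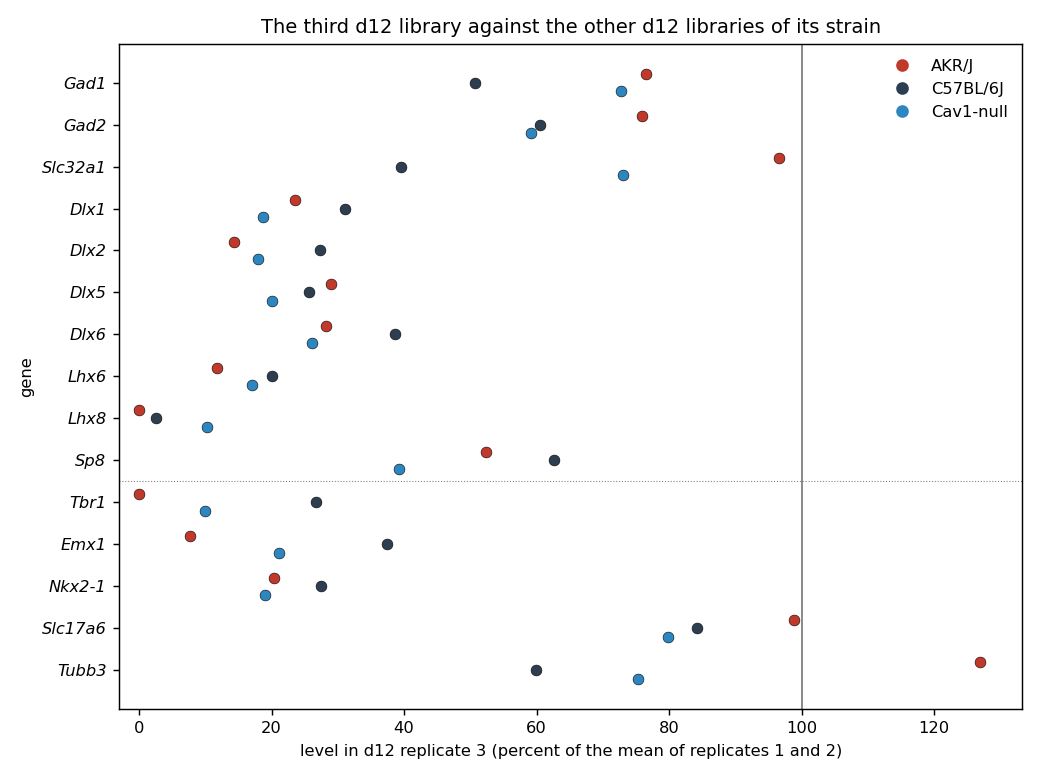
Level of each gene in the third d12 library as a percent of the mean of the other 2 d12 libraries of its strain, for the 10 genes and for Tbr1, Emx1, Nkx2-1, Slc17a6 and Tubb3. Each point is 1 strain. Dlx2 and Lhx6 lie between 11.7% and 27.3%, Gad1 and Gad2 between 50.7% and 76.6%, and Slc17a6 between 79.9% and 98.9%.

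Levels of different genes were compared only per length, as CPM per kilobase of exon (RPKM). Dlx1 ranked highest of the 10 genes in each of the 9 groups, with a mean of 29.4 RPKM over the 27 libraries (range 4.48 to 64.6), although its libraries overlapped those of the next gene in 7 of the 9. Gad2 came next at 22.9 RPKM (10.2 to 36.8) and held rank 2 or 3 in every group. Dlx2 averaged 13.8 RPKM (1.30 to 45.3) and Gad1 12.6 RPKM (4.87 to 20.4), and their ranges overlapped widely. The lowest were Dlx6 at 4.08 RPKM, Lhx8 at 3.39 RPKM and Sp8 at 2.79 RPKM, which traded places between ranks 6 and 10 from group to group. Dlx2 thus spanned a wider range than Gad2.

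**Figure D2:**
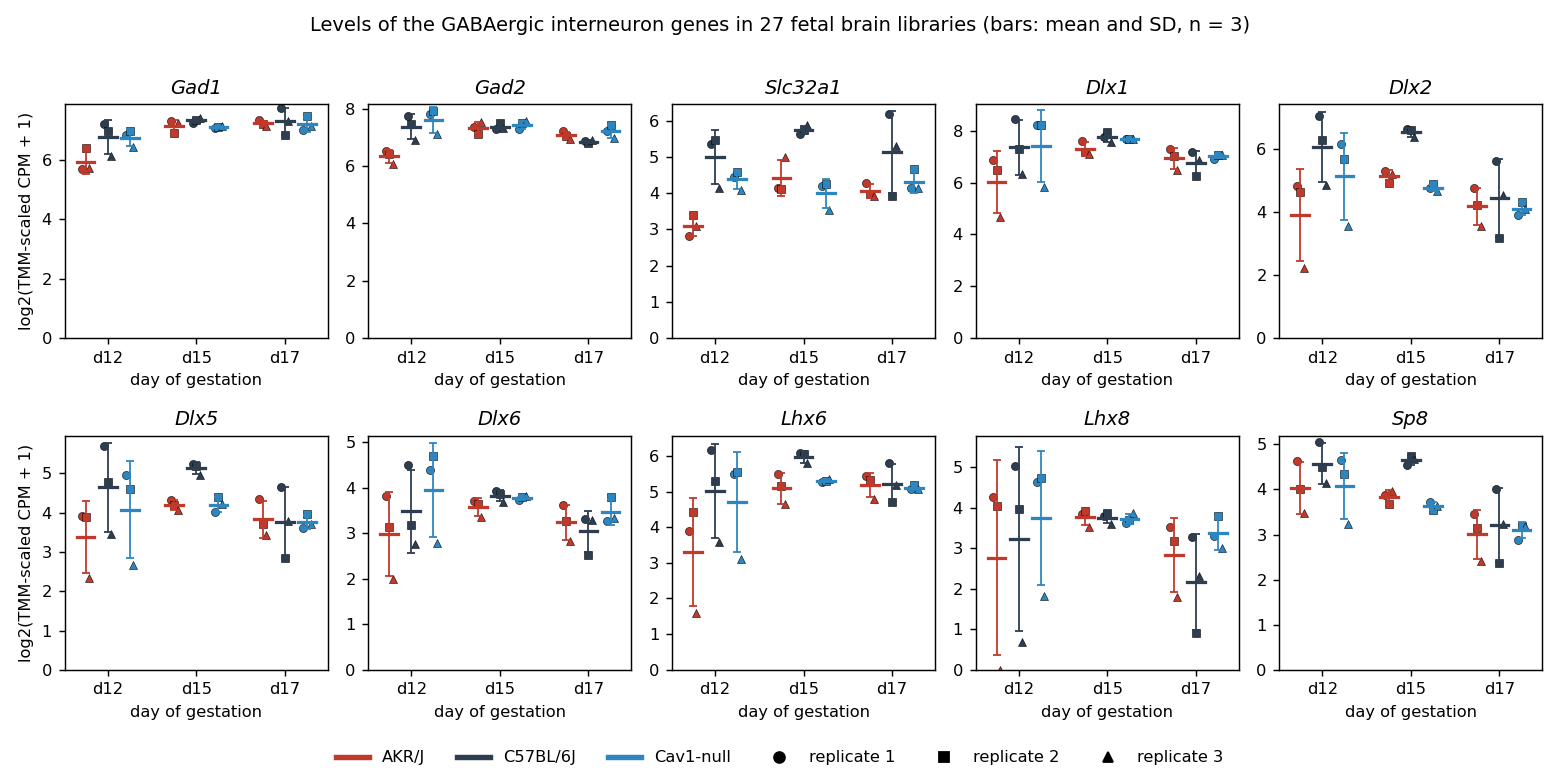
Level of each of the 10 genes in all 27 libraries by gestational day, as log2 of CPM plus 1, with AKR/J, C57BL/6J and Cav1-null in separate colours and the mean ± SD of 3 libraries per group. The C57BL/6J means of Slc32a1 and Dlx2 on d15 stand at 52.9 and 91.8 CPM, above the other strains.

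The genes for GABA synthesis and release rose between d12 and d15 in AKR/J. Between d15 and d17 the genes that fell, each in at least 1 strain, were Dlx1, Dlx2, Dlx5, Sp8 and Gad2, the last in C57BL/6J. In the AKR/J early phase 3 of 10 genes rose and 0 fell, where 14.8% of all genes tested rose and 28.9% were called in either direction (edgeR quasi-likelihood test, adjusted p under 0.05 over all genes). Called genes numbered 0 of 10 in the C57BL/6J early phase against 14.9% of all genes. There edgeR placed 0 of 10 genes and 6885 of all genes at an unadjusted p under 0.05, and DESeq2 called 0 of 10. By comparison 1 of 10 rose in the Cav1-null early phase, where 11.6% of all genes rose and 23.4% were called. In the late phase 1 of 10 fell in AKR/J, where 10.4% of all genes fell and 22.1% were called. In C57BL/6J 2 of 10 fell (5.58% of all genes fell, 13.0% called), and in Cav1-null 4 of 10 fell (12.8% fell, 27.3% called). Each count covers 10 genes and is a description, and the 2 phases of a strain use the same d15 libraries. The median log2 fold change of the 10 genes was 0.91 (AKR/J), 0.15 (C57BL/6J) and -0.26 (Cav1-null) for the early phase, where the medians of all genes were 0.02, -0.04 and -0.01. Without the third d12 library of the strain the early medians of the 10 genes were 0.48, -0.21 and -0.52. For the late phase the medians were -0.31, -0.85 and -0.31, against -0.01, 0.03 and -0.00 for all genes.

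Gad1, the main enzyme for GABA synthesis in cell bodies, measured 50.7, 83.3 and 51.3 CPM in the AKR/J libraries on d12, 156, 118 and 149 CPM on d15, and 159, 145 and 141 CPM on d17. Every d15 library lay above every d12 library, and the log2 fold change of the early phase was 1.16 ± 0.23 (SE; adjusted p = 0.00843, edgeR). In Cav1-null the d12 libraries held 112, 125 and 86.1 CPM and the d15 libraries 134, 138 and 141 CPM. The groups did not overlap there either, and Gad1 rose by a log2 fold change of 0.38 ± 0.11 (adjusted p = 0.0370), a smaller step. That call held in 8 of 14 alternatives and was lost without replicate 1 of d12 (adjusted p = 0.0883) and without replicate 1, 2 or 3 of d15 (0.104, 0.120 and 0.128). In C57BL/6J, 147, 125 and 68.9 CPM on d12 stood beside 151, 160 and 168 CPM on d15, a log2 fold change of 0.46 that did not pass the test. On d17 the C57BL/6J libraries spread from 113 to 213 CPM and the Cav1-null libraries from 126 to 177 CPM.

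Gad2, the enzyme enriched at nerve terminals, rose in the AKR/J early phase by a log2 fold change of 0.97 ± 0.18 (adjusted p = 0.00728, edgeR). Its libraries moved from 90.1, 84.6 and 66.3 CPM to 163, 139 and 182 CPM. In the other strains it was already at 213, 176 and 118 CPM (C57BL/6J) and 222, 240 and 136 CPM (Cav1-null) on d12. Gad2 fell in the C57BL/6J late phase, from 156, 178 and 158 CPM to 115, 111 and 118 CPM, with no overlap between the days. The log2 fold change was -0.47 ± 0.12 (adjusted p = 0.0438), and it passed the test in 7 of 14 alternatives. Without replicate 1, 2 or 3 of d15, or replicate 3 of d17, the adjusted p was 0.140, 0.181, 0.128 and 0.145.

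Slc32a1, the vesicular GABA transporter, rose in the AKR/J early phase from 6.07, 9.48 and 7.51 CPM to 16.7, 16.2 and 31.0 CPM, a log2 fold change of 1.43 ± 0.30 (adjusted p = 0.0107, edgeR). Other cell classes moved in the same comparison. Pan-neuronal genes summed to between 2190 and 2700 CPM on d12 and 4260 and 6540 CPM on d15, with 7 of 10 higher, and glutamatergic genes to between 236 and 446 CPM and 627 and 1180 CPM, with 3 of 12 higher, where 14.8% of all genes were higher. The erythroid sum went from between 34400 and 202000 CPM to between 2040 and 3150 CPM, with 13 of 14 genes lower, and 7 of 10 trophoblast and yolk sac genes were lower, where 14% of all genes were. The part of these classes in the rises was not tested. The rises of Gad1, Gad2 and Slc32a1 in AKR/J passed the test in 14 of 14 alternatives each, including the one without the third d12 library. In C57BL/6J, Slc32a1 spread from 16.6 to 43.5 CPM on d12 and from 14.2 to 71.5 CPM on d17 around a narrow d15 group of 48.7, 52.6 and 57.3 CPM. Neither phase passed the test in that strain. In Cav1-null all 9 libraries lay between 10.6 and 24.2 CPM.

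The Dlx factors varied with the d12 libraries described above, and 3 of the 4 fell in the Cav1-null late phase. Dlx1 measured 204, 204 and 205 CPM on d15 and 120, 133 and 134 CPM on d17 in Cav1-null, a log2 fold change of -0.64 ± 0.07 (adjusted p = 2.09e-05, edgeR). Dlx2 went from 26, 28.4 and 24.6 CPM to 14, 18.9 and 16.1 CPM, a log2 fold change of -0.66 ± 0.11 (adjusted p = 0.000688). Neither gene's libraries overlapped between the days. Both calls held in 13 of 14 alternatives and were lost with all 27 libraries in 1 model (adjusted p = 0.565 and 0.645). Dlx5 fell as well, from 15.1, 20 and 17.5 CPM to 11.1, 14.5 and 12.1 CPM (log2 fold change -0.46 ± 0.13, adjusted p = 0.0188), a call that held in 10 of 14 alternatives. It was lost in that model (adjusted p = 0.734) and without d15 replicate 2 (0.113), d17 replicate 1 (0.0538) or d17 replicate 3 (0.0758). Without d17 replicate 2 the number of genes that fell in this comparison was 6 in place of 4, where 9.48% of all genes fell, with Dlx6 (-0.47, adjusted p = 0.0203) and Lhx8 (-0.59, adjusted p = 0.0178) added.

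In the C57BL/6J late phase Dlx1 fell from 213, 245 and 190 CPM to 142, 75.9 and 117 CPM, a log2 fold change of -0.92 ± 0.22 (adjusted p = 0.0389, edgeR). The second d17 library was the lowest of its group for each of the 4 Dlx genes. Dlx2 went from 98.2, 95.4 and 81.8 CPM to 48.6, 8.00 and 22.3 CPM, a log2 fold change of -1.78 that did not pass the test (adjusted p = 0.0641), although no d17 library reached the d15 range. It passed in 8 of 14 alternatives, DESeq2 among them (adjusted p = 0.00242). The Dlx1 call held in 8 of 14 alternatives and was lost without replicate 1, 2 or 3 of d15 or replicate 3 of d17 (adjusted p = 0.119, 0.138, 0.0888 and 0.141). The number of genes that fell in this comparison was 8 when d17 replicate 1 was left out, where 33.2% of all genes were called, 4 when d17 replicate 2 was (13.6%), and 0 when any of those 4 libraries was (0.767% to 3.79%). The replicate block, which treats libraries with the same number as paired, lost the calls of Gad2 (adjusted p = 0.104) and Dlx1 (0.0521) and called Dlx2 (0.0326), Dlx5 (0.0428) and Sp8 (0.0422) in their place. Without d17 replicate 1, the log2 fold change of Dlx2 was -2.56 (adjusted p = 0.00458), of Sp8 -1.89 (0.00447) and of Lhx8 -2.33 (0.0183).

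In AKR/J, Dlx2 was the gene that fell in the late phase, from 38.1, 29.5 and 35.8 CPM to 25.9, 17.7 and 10.9 CPM (log2 fold change -0.88 ± 0.25, adjusted p = 0.0396, edgeR). The groups did not overlap, and the call held in 9 of 14 alternatives. It was lost without d15 replicate 1 (adjusted p = 0.101) or 3 (0.0749) and without d17 replicate 2 (0.142) or 3 (0.0718). Without d15 replicate 2 or d17 replicate 1, 3 genes fell, where 23.3% and 20.1% of all genes were called. The early phase of AKR/J gave log2 fold changes of 1.00 for Dlx1, 0.86 for Dlx2, 0.67 for Dlx5 and 0.42 for Dlx6, none past the test.

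For Cav1-null the early phase turned on the third d12 library. Dlx2 measured 70.5, 50.9 and 10.9 CPM on d12 and 26, 28.4 and 24.6 CPM on d15, so that the d15 group lay inside the d12 range. Lhx8 likewise measured 24.0, 25.7 and 2.55 CPM before 11.4, 11.9 and 13.5 CPM. With all libraries, Gad1 alone was called. Without the third d12 library 9 of 10 genes were called, and 8 of them fell, where 35.9% of all genes were called and 18.2% fell. In that setting 8 of 10 genes of the ganglionic eminence progenitors and 9 of 10 neural progenitor and proliferation genes were lower as well, against 3 and 8 with every library in, where 11.8% of all genes were lower. Dlx2 then fell by 1.15 on the log2 scale (adjusted p = 1.80e-06), Lhx8 by 0.97 (1.21e-05), Sp8 by 0.86 (9.72e-05), Dlx6 by 0.78 (0.000172), Dlx5 by 0.55 (0.00557), Dlx1 by 0.49 (0.000180), Slc32a1 by 0.47 (0.0392) and Gad2 by 0.37 (0.00712). The same step in C57BL/6J, without the third d12 library, called 0 of 10 and 16.5% of all genes. In AKR/J it left 3 called, and 18.1% of all genes.

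Lhx6, the factor of migrating interneurons from the medial ganglionic eminence, did not pass the test in any phase. In AKR/J it measured 13.9, 20.6 and 2.02 CPM on d12 and 44.1, 34.3 and 23.9 CPM on d15, with no overlap and a log2 fold change of 1.45. Its d17 values were 42.3, 39.1 and 26.8 CPM in AKR/J, 54.8, 25.0 and 35.0 CPM in C57BL/6J and 32.3, 35.3 and 32.5 CPM in Cav1-null. Lhx8 was on d17 at 10.5, 8.00 and 2.48 CPM in AKR/J, 8.64, 0.883 and 3.99 CPM in C57BL/6J and 8.86, 12.9 and 6.98 CPM in Cav1-null. Its late phase gave log2 fold changes of -0.83, -1.46 and -0.33 in the same order, none past the test.

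Sp8, the factor of the caudal and lateral eminences, fell in the Cav1-null late phase from 12.2, 10.7 and 11.5 CPM to 6.40, 8.14 and 8.17 CPM, a log2 fold change of -0.58 ± 0.13 (adjusted p = 0.00573, edgeR). With all 27 libraries in 1 model that call was lost (adjusted p = 0.467). In AKR/J it went from 13.6, 11.7 and 14.7 CPM to 9.94, 7.86 and 4.31 CPM and in C57BL/6J from 22.2, 25.9 and 24.4 CPM to 15.1, 4.18 and 8.42 CPM. No d17 library reached the d15 range in either strain, but the log2 fold changes of -0.82 and -1.36 did not pass the test (adjusted p = 0.0578 and 0.0587). They passed in 4 and 8 of 14 alternatives, with adjusted p of 0.00993 and 0.00403 by DESeq2. Counted over the 10 genes, the d17 libraries lay wholly below the d15 libraries for 3 genes in AKR/J, where 21.2% of all genes tested did so, 7 genes in C57BL/6J (22.5%) and 5 genes in Cav1-null (23.0%).

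**Figure D3:**
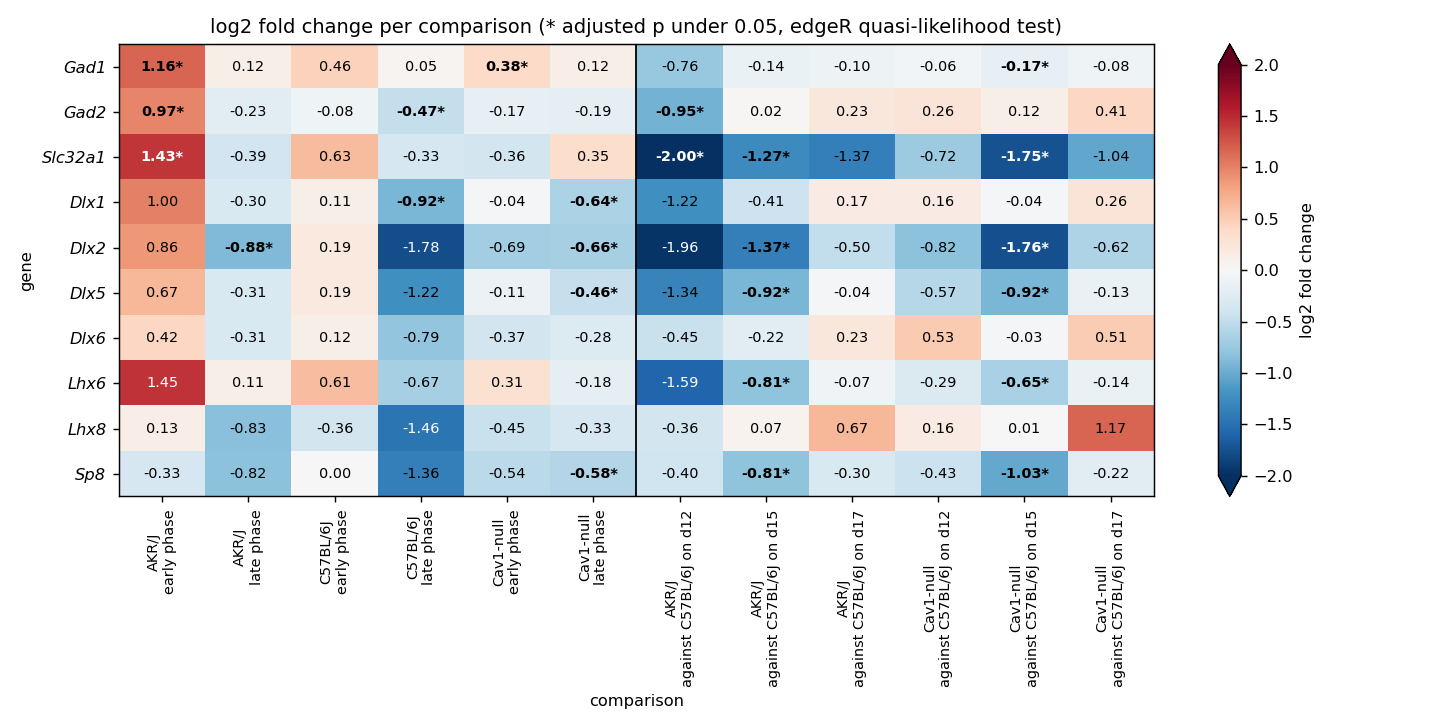
Heat map of log2 fold changes of the 10 genes in the 6 phase comparisons (later over earlier day) and the 6 strain comparisons (AKR/J or Cav1-null over C57BL/6J). Asterisks mark an adjusted p under 0.05. The marked deficits on d15, from -0.17 to -1.76, number 5 in AKR/J and 6 in Cav1-null, where 22.3% and 31.8% of all genes were lower. The Cav1-null late phase has 4 falls (12.8% of all genes fell) and the AKR/J early phase 3 rises (14.8% rose). The Gad1 value of -0.17 turned to 0.01 when library sizes alone were used for scaling.

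In the fits reported here, the strain comparisons with the most calls among these genes were those on d15. With all 27 libraries in 1 model, without the filter on low counts, or with the replicate block, AKR/J on d12 had the most. On d15 Slc32a1, Dlx2, Dlx5, Lhx6 and Sp8 were lower in both short-lived strains than in C57BL/6J. Gad2, Dlx1, Dlx6 and Lhx8 were not called in either. With library sizes alone for scaling, Gad2 was higher in Cav1-null (0.30, adjusted p = 0.00867). In AKR/J 5 of 10 genes were lower and 0 higher, where 22.3% of all genes were lower and 41.1% were called in either direction. In Cav1-null 6 of 10 were lower and 0 higher, where 31.8% of all genes were lower and 58.6% were called. A large part of the transcriptome thus differed between strains on this day, and both comparisons use the same C57BL/6J libraries. The median log2 fold change of the 10 genes was -0.61 in AKR/J and -0.41 in Cav1-null, where all genes had 0.06 and 0.03.

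Dlx2 and Slc32a1 had the widest gaps on d15. Dlx2 measured 98.2, 95.4 and 81.8 CPM in C57BL/6J, 38.1, 29.5 and 35.8 CPM in AKR/J and 26, 28.4 and 24.6 CPM in Cav1-null. No AKR/J or Cav1-null library came near the C57BL/6J range. The level was 2.58-fold lower in AKR/J (log2 fold change -1.37 ± 0.10, adjusted p = 0.000178, edgeR), and the log2 fold change was -1.76 ± 0.09 in Cav1-null (adjusted p = 8.00e-08). Its neighbour Dlx1 measured 213, 245 and 190 CPM in C57BL/6J, 192, 145 and 136 CPM in AKR/J and 204, 204 and 205 CPM in Cav1-null. The Dlx1 groups overlapped, and the log2 fold changes were -0.41 (adjusted p = 0.0703) and -0.04, neither past the test. Without AKR/J d15 replicate 1 the value of Dlx1 was -0.58 (adjusted p = 0.0185).

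Slc32a1 measured 48.7, 52.6 and 57.3 CPM on d15 in C57BL/6J, 16.7, 16.2 and 31.0 CPM in AKR/J and 17.2, 18.2 and 10.6 CPM in Cav1-null. All 6 libraries of the short-lived strains lay below the C57BL/6J range. The log2 fold changes were -1.27 ± 0.22 (adjusted p = 0.00335, edgeR) and -1.75 ± 0.16 (adjusted p = 6.99e-06), and both calls held in 14 of 14 alternatives. The enzymes that make GABA showed no such gap. Gad2 measured 156, 178 and 158 CPM in C57BL/6J, 163, 139 and 182 CPM in AKR/J and 154, 178 and 187 CPM in Cav1-null. Gad1 was lower in Cav1-null by a log2 fold change of -0.17 ± 0.06 (adjusted p = 0.0202), but with library sizes alone as the scaling the value was 0.01 (adjusted p = 0.920). The call was also lost without C57BL/6J replicate 2 (adjusted p = 0.109) or 3 (0.0621) and without Cav1-null replicate 1 (0.0737) or 2 (0.109).

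Dlx5 measured 37.0, 35.6 and 29.9 CPM on d15 in C57BL/6J, 19.1, 17.2 and 15.8 CPM in AKR/J and 15.1, 20 and 17.5 CPM in Cav1-null, with a log2 fold change of -0.92 ± 0.12 in each strain (adjusted p = 0.00112 and 8.32e-05, edgeR). Sp8 measured 22.2, 25.9 and 24.4 CPM, 13.6, 11.7 and 14.7 CPM, and 12.2, 10.7 and 11.5 CPM in the same order of strains. Its log2 fold changes were -0.81 ± 0.11 (adjusted p = 0.00110) and -1.03 ± 0.11 (adjusted p = 1.39e-05). For both genes every library of the short-lived strains lay below the C57BL/6J range. Lhx6 measured 66.8, 65.8 and 54.3 CPM, 44.1, 34.3 and 23.9 CPM, and 37.5, 38.4 and 39.8 CPM, with log2 fold changes of -0.81 ± 0.22 (adjusted p = 0.0206) and -0.65 ± 0.09 (8.49e-05). The AKR/J call of Lhx6 was lost without C57BL/6J replicate 1 or 2 (adjusted p = 0.0593 each). Lhx8 groups overlapped across the strains, at 12.8, 13.6 and 11.2 CPM, 13.3, 14.1 and 10.6 CPM, and 11.4, 11.9 and 13.5 CPM.

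Fold changes on d15 moved with the GC content of the transcripts across all genes. From the lowest to the highest of 20 GC bins, the median log2 fold change went from 0.61 to -0.48 in AKR/J and from 0.90 to -0.69 in Cav1-null. The trend was not particular to d15. On d12 the medians went from 0.98 to -0.52 (AKR/J) and from 0.50 to -0.43 (Cav1-null). On d17 they went from 0.18 to -0.43 and from 0.26 to -0.31, and in the C57BL/6J late phase from 0.64 to -0.21. For the genes lower in both strains on d15, transcript GC was 59.3% (Dlx2), 58.5% (Slc32a1), 56.2% (Lhx6), 56.1% (Dlx5) and 53.1% (Sp8). Gad1, called lower in Cav1-null only, was at 50.3%. The genes not called in either strain were at 47.2% (Gad2), 50.8% (Dlx6), 52.6% (Lhx8) and 56.8% (Dlx1). With the GC trend taken out of the counts, Dlx2 was still lower by a log2 fold change of -0.99 ± 0.11 in AKR/J (adjusted p = 0.000983, edgeR) and -1.22 ± 0.08 in Cav1-null (5.05e-07). Slc32a1 was at -0.90 ± 0.22 (adjusted p = 0.0196) and -1.22 ± 0.13 (1.95e-05), Sp8 at -0.64 ± 0.12 (0.00648) and -0.74 ± 0.11 (0.000167), and Dlx5 at -0.66 ± 0.12 (0.00651) and -0.53 ± 0.13 (0.00497). Lhx6 was still called in Cav1-null (-0.26 ± 0.09, adjusted p = 0.0397) and not in AKR/J (-0.55, adjusted p = 0.0918). Gad1 was no longer called in Cav1-null (adjusted p = 0.157). Dlx1 changed sign there, to 0.40 ± 0.10 higher than in C57BL/6J (adjusted p = 0.00472).

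**Figure D4:**
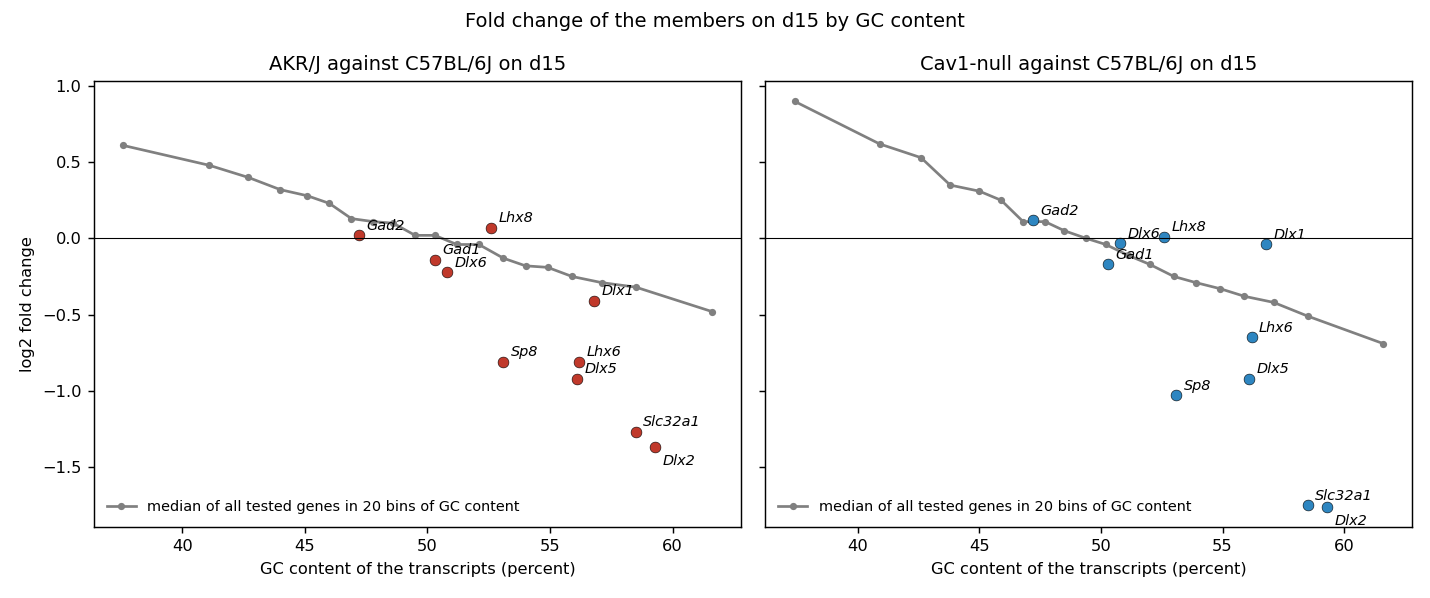
Log2 fold change on d15 against transcript GC content in percent, for AKR/J and for Cav1-null over C57BL/6J. Points are the 10 genes and the grey line joins the medians of all genes in 20 GC bins. The line drops from 0.61 to -0.48 and from 0.90 to -0.69, Dlx2 and Slc32a1 lie below it in both panels, and Dlx1 lies above it in the Cav1-null panel.

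Markers of tissue around the brain varied on d15. Summed over 16 craniofacial and oral ectoderm genes, C57BL/6J libraries held 129 to 2830 CPM, AKR/J 46.9 to 480 CPM and Cav1-null 33.6 to 53.2 CPM, and Barx1 and Hand2 had 0 reads in every Cav1-null library. The highest value was C57BL/6J replicate 1, through Col1a1 at 2700 CPM. Without that library 6 genes were still lower in Cav1-null and 4 in AKR/J, where 29.6% and 18.7% of all genes were, and Dlx5 measured 37.0 CPM in it beside 35.6 and 29.9 CPM in the others. With all 27 libraries in 1 model, 3 genes stayed lower in Cav1-null (Slc32a1, Dlx2 and Sp8) and 1 in AKR/J (Slc32a1), where 21.3% and 15.7% of all genes were lower.

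Slc32a1 and Gad2 were lower in AKR/J than in C57BL/6J on d12. The median log2 fold change of the 10 genes was -1.09 against 0.02 for all genes, and 2 of 10 were lower, where 14.1% of all genes were lower and 28.6% were called. Slc32a1 measured 6.07, 9.48 and 7.51 CPM in AKR/J and 40.3, 43.5 and 16.6 CPM in C57BL/6J (log2 fold change -2.0 ± 0.38, adjusted p = 0.0117, edgeR). Gad2 measured 90.1, 84.6 and 66.3 CPM against 213, 176 and 118 CPM (-0.95 ± 0.26, adjusted p = 0.0269). No AKR/J library of either gene reached the C57BL/6J range. With the GC trend taken out, Slc32a1 was at -1.52 ± 0.31 (adjusted p = 0.0179, edgeR) and Gad2 at -1.01 ± 0.25 (adjusted p = 0.0273). Dlx2, not called, went from -1.96 to -1.48. Without the third d12 library of both strains 5 genes were lower, namely Slc32a1 (-2.32), Dlx2 (-1.90), Lhx6 (-1.55), Dlx5 (-1.38) and Gad2 (-1.05), where 7.50% of all genes were lower. Without C57BL/6J replicate 2 the count was 0, where 0.0342% of all genes were lower. Without C57BL/6J replicate 1, AKR/J replicate 1 or AKR/J replicate 3 it was 1 (3.11%, 2.05% and 2.32% of all genes), without AKR/J replicate 2 it was 3 (20.4%), and without C57BL/6J replicate 3 it was 5 (14.6%). In the same comparison 12 of 14 erythroid genes and 7 of 10 trophoblast and yolk sac genes were higher in AKR/J, where 14.5% of all genes were higher. Pan-neuronal genes summed to between 2190 and 2700 CPM in AKR/J and 3930 and 6320 CPM in C57BL/6J, with 5 of 10 lower, and genes for GABA uptake, breakdown and the inhibitory synapse to between 496 and 797 CPM and 965 and 1430 CPM, with 7 of 10 lower, where 14.1% of all genes were lower. The part of these lists in the result was not tested.

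Between Cav1-null and C57BL/6J on d12, 0 of 10 genes and 0% of all genes were called by edgeR, with 0 of 10 genes and 4309 of all genes at an unadjusted p under 0.05. DESeq2 called 0 of 10 as well. Without C57BL/6J replicate 3, or without the third library of both strains, Slc32a1 was lower (-1.06, adjusted p = 0.0326, and -0.91, adjusted p = 0.0176), where 6.38% and 11.2% of all genes were lower. With every library in, Slc32a1 measured 20.8, 23.1 and 16.1 CPM in Cav1-null and 40.3, 43.5 and 16.6 CPM in C57BL/6J, and the groups overlapped through the third C57BL/6J library. The log2 fold change of Slc32a1 was then -0.72, and -0.30 with the GC trend taken out (adjusted p = 0.668, edgeR).

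By d17 edgeR called none of the 10 genes in either short-lived strain, against 0.742% of all genes in AKR/J and 0.0491% in Cav1-null. At an unadjusted p under 0.05 stood 1 of 10 genes in each, and 4275 and 1538 of all genes. DESeq2 called 1 gene (Slc32a1) in AKR/J and 0 in Cav1-null. The second C57BL/6J library was far below the others for some of the genes and not for Gad2, with Lhx8 at 0.883 CPM against 8.64 and 3.99 CPM and Slc32a1 at 14.2 CPM against 71.5 and 38.5 CPM. Without it, Slc32a1 was lower in AKR/J (-1.74, adjusted p = 0.00410) and in Cav1-null (-1.45, adjusted p = 0.0243), and Dlx2 was lower in Cav1-null (-1.04, adjusted p = 0.0415), where 15.1% and 9.94% of all genes were lower. Gad2 measured 115, 111 and 118 CPM in C57BL/6J, 147, 130 and 123 CPM in AKR/J and 148, 171 and 126 CPM in Cav1-null. Its log2 fold changes of 0.23 (AKR/J) and 0.41 (Cav1-null) did not pass the test.

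Whether a phase differed between strains was tested as an interaction, and 0 of 10 genes were called in any of the 4 tests, against 0.0711% and 0.00472% of all genes for the early phase of AKR/J and Cav1-null and 0.00468% and 0.252% for the late phase (edgeR). Of the 10 genes 1, 1, 1 and 0 were at an unadjusted p under 0.05 in that order, and of all genes 3432, 3181, 1617 and 4683. DESeq2 called 1 of 10 in the first test and 0 in the others. For Gad2 the early phase log2 fold change of AKR/J less that of C57BL/6J was 0.99 ± 0.29, with an adjusted p of 0.147. Without AKR/J d12 replicate 2 the adjusted p was 0.0483, without C57BL/6J d12 replicate 3 it was 0.0294, and without the third d12 library of both strains it was 0.0496. The early phase of Cav1-null without those libraries gave 0 of 10. The late phase of Cav1-null differed from that of C57BL/6J in 6 of 10 genes, all with a higher value in Cav1-null, when C57BL/6J d17 replicate 1 was left out, Dlx2 by 1.95 (adjusted p = 0.00201). In that setting 26.1% of all genes were called and 16.8% were higher in Cav1-null.

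Ratios of 2 genes within a library do not depend on its scaling, and 7 were tested in each phase. The balance moved from Gad2 toward Gad1 in both phases. In the late phase it also moved from Dlx2 toward Dlx1, from Lhx8 toward Lhx6, and from the Dlx factors toward the GABA enzymes. The log2 ratio of Gad2 to Gad1 fell by 0.44 in the early phase, averaged over AKR/J (-0.21), Cav1-null (-0.54) and C57BL/6J (-0.56), and by 0.38 in the late phase (adjusted p = 0.00525 each, exact permutation test within strains over 18 libraries, two-sided, adjusted over 14 tests). In C57BL/6J the ratio was 0.54, 0.49 and 0.78 on d12, 0.05, 0.16 and -0.09 on d15, and -0.89, -0.02 and -0.43 on d17. The days overlapped in that strain only between d15 and d17, through the second d17 library. Without the third d12 library of every strain the early change was -0.45 (adjusted p = 0.00933). The early log2 ratio of Lhx8 to Lhx6 turned on those libraries, with 0.02 (adjusted p = 0.982) when they were in and -1.08 (adjusted p = 0.00438) when they were left out.

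In the late phase the log2 ratio of Gad1 plus Gad2 to the 4 Dlx genes rose by 0.63 (0.35, 0.99 and 0.56 in AKR/J, C57BL/6J and Cav1-null, adjusted p = 0.00525, exact permutation test). Its values on d15 were 0.29, 0.34 and 0.75 in AKR/J, -0.24, -0.2 and 0.05 in C57BL/6J and 0.17, 0.25 and 0.34 in Cav1-null. On d17 they were 0.54, 0.71 and 1.18, then 0.55, 1.24 and 0.78, then 0.84, 0.96 and 0.63. The days overlapped in AKR/J and not in the other strains. The ratio of Lhx8 to Lhx6 fell by 0.86 (-1.18, -1.22 and -0.19, adjusted p = 0.00525) and that of Dlx2 to Dlx1 by 0.61 (-0.64, -1.16 and -0.03, adjusted p = 0.00700). For Dlx2 to Dlx1 the Cav1-null part was near 0, with -2.97, -2.84 and -3.06 on d15 and -3.09, -2.81 and -3.05 on d17, and the call was lost without C57BL/6J d15 replicate 1 (-0.59, adjusted p = 0.0553) or 3 (-0.61, adjusted p = 0.0511). The other 9 tests had adjusted p between 0.195 and 0.982.

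**Figure D5:**
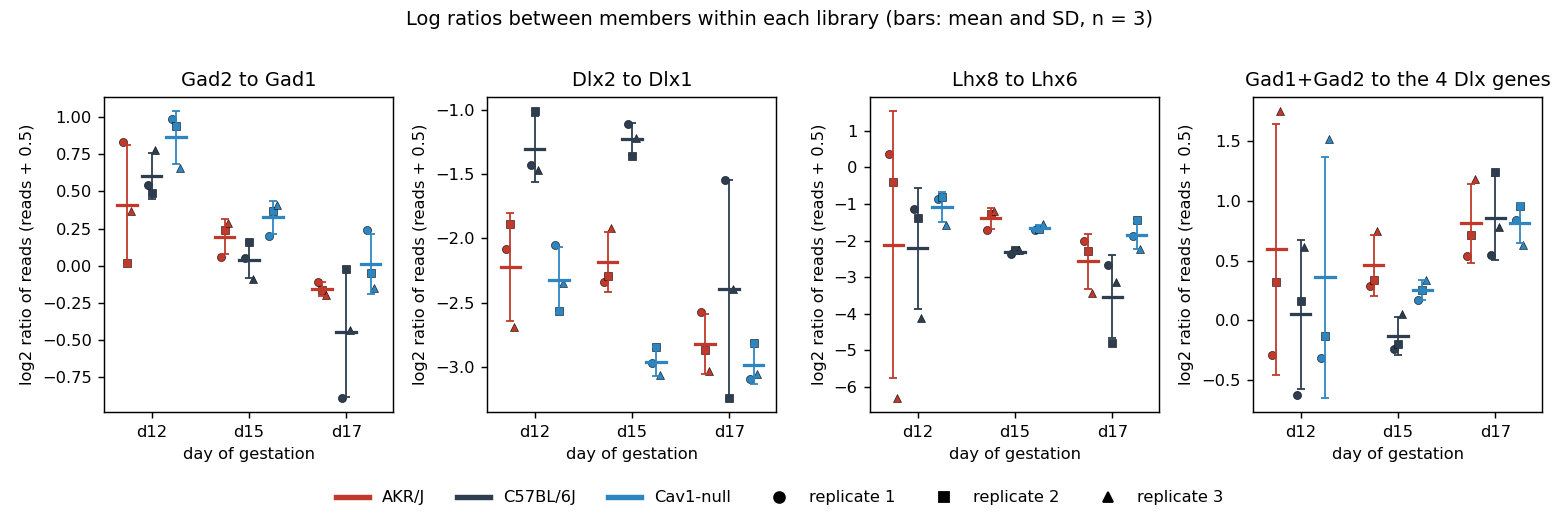
Log2 ratio of reads in each library by gestational day for Gad2 to Gad1, Dlx2 to Dlx1, Lhx8 to Lhx6 and Gad1 plus Gad2 to the 4 Dlx genes, with the 3 strains in separate colours. The Gad2 to Gad1 ratio steps down by 0.44 and 0.38 over the early and the late phase, and the ratio of the enzymes to the Dlx genes steps up by 0.63 in the late phase.

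Within a strain and day the 10 genes moved together from library to library. With the group means removed, the 45 pairs had a median Pearson correlation of log2 levels of 0.81 over 27 libraries, from 0.39 (Slc32a1 and Dlx6) to 0.98 (Dlx2 and Dlx5), and 41 pairs were above 0.5. Without the third d12 library of each strain the median was 0.67, with a range of 0.22 to 0.96 and 32 pairs above 0.5. The points share library, dissection and scaling, so these are descriptions. Among the genes whose levels ran closest to Gad1 over the 27 libraries were Brinp2 (r = 0.964) and Plcl2 (0.951). For Dlx2 they included Sox6 (0.947) and Epha4 (0.946), for Lhx6 they included Sel1l3 (0.941) and Slc17a7 (0.920), and for Sp8 they were Fzd8 (0.942), Sall1 (0.925) and Efnb1 (0.923). The median over 16433 genes lay between 0.08 and 0.11 for these 4 genes.

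Splice junction reads were listed for 25 junctions under 9 of the 10 genes, and none under Slc32a1. No site of alternative junctions reached 20 reads in all 27 libraries. Of the 4 junctions listed under Dlx6, 3 are annotated introns of Dlx6os1, a long noncoding RNA transcribed across Dlx6 on the opposite strand. These 3 join different donors to the same acceptor, and they were followed after the data had been seen. Another annotated donor of Dlx6os1 at this acceptor, listed under Dlx6os1 and not under Dlx6, had reads in 2 libraries, with 108 in AKR/J d12 replicate 1 and 79 in Cav1-null d17 replicate 2, and was left out of the shares. In the annotation the far donor ends the first exon of the transcripts that begin farthest upstream. The middle donor ends a second exon, and the near donor ends the first exon of some transcripts and the second exon of others. The shares therefore describe which donor was joined to this acceptor and do not separate the starts of transcription. The splice sites on the minus strand of chromosome 6 (GRCm39) are printed with 15 bases of exon beside the donors, and capitals mark the GT and AG at the ends of the introns.
Near donor, chr6:6869294-6869323: ggaacggggatattgGTaagtagtctttgc
Middle donor, chr6:6869650-6869679: ggaagaaaattacagGTaattatctttgac
Far donor, chr6:6871474-6871503: gagatattcaccgggGTaagtttttatttt
Shared acceptor, chr6:6824553-6824582: atttataatttacAGaaccagagagaaacc
The middle donor lies inside the first Dlx6os1 promoter window printed above, whose letters are found at the same coordinates of GRCm39. The far donor stands farthest upstream.

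The mean share of the far donor was lower on each later day in every strain. It averaged 55.6% ± 27.7, 37.9% ± 3.50 and 18.9% ± 2.83 on d12, d15 and d17 in AKR/J, 41.4% ± 5.02, 31.4% ± 5.44 and 23.6% ± 10.6 in C57BL/6J, and 41.1% ± 10.4, 31.7% ± 7.89 and 21.1% ± 5.03 in Cav1-null (SD, n = 3). In the late phase it fell by 12.5 percentage points (adjusted p = 0.00650, exact permutation test within strains, two-sided) and in the early phase by 12.4 points (adjusted p = 0.0190). With that other donor counted the share was 20.9% in place of 36.9% in AKR/J d12 replicate 1 and 16% in place of 26% in Cav1-null d17 replicate 2. The late change was then -13.6 points (adjusted p = 0.00400), and the early change of -10.6 points did not pass the test (adjusted p = 0.113). The AKR/J libraries read 33.9%, 40.6% and 39.0% on d15 and 22.0%, 16.4% and 18.2% on d17, with no overlap. Between 16 and 273 reads per library stood behind a share. The highest share, 87.5% in the third AKR/J d12 library, came from 14 of 16 reads (Wilson 95% interval 64.0 to 96.5), and without that library the early difference was -7.08 points. Without the third d12 library of every strain it was -8.20 points (adjusted p = 0.0170). The early call was lost without AKR/J d15 replicate 1 (adjusted p = 0.0712) or 3 (0.0530). As a whole gene Dlx6os1 fell in the late phase of C57BL/6J (log2 fold change -0.94 ± 0.14, adjusted p = 0.0106, edgeR) and of Cav1-null (-0.63 ± 0.10, adjusted p = 0.000455). On d15 it was higher in Cav1-null than in C57BL/6J (0.63 ± 0.12, adjusted p = 0.00122), as was Dlx1as (0.58 ± 0.14, adjusted p = 0.00492). On d17 Dlx6os1 was higher in AKR/J than in C57BL/6J (1.03 ± 0.18, adjusted p = 0.0443), and the Cav1-null value of 0.95 ± 0.13 did not pass the test (adjusted p = 0.103).

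Other genes of the interneuron lineage were read as lists. Of the markers of interneuron subtypes 6 of 11 tested rose in the AKR/J late phase, where 11.6% of all genes rose, 5 of 10 in that of C57BL/6J (7.46%) and 4 of 10 in that of Cav1-null (14.5%), and none fell. The summed level of the list went from between 186 and 246 CPM on d15 to between 285 and 346 CPM on d17 in AKR/J and from between 262 and 278 CPM to between 325 and 343 CPM in Cav1-null. In C57BL/6J the sum had a median of 565 CPM (540 to 570) on d15 and of 372 CPM (319 to 618) on d17. The genes with the largest rise were Cck in AKR/J (log2 fold change 1.73 ± 0.30, adjusted p = 0.00629, edgeR), Htr3a in C57BL/6J (1.28 ± 0.27, adjusted p = 0.0248) and Npy in Cav1-null (1.04 ± 0.14, adjusted p = 0.000113). The list medians were 0.74, 0.74 and 0.48, against medians of -0.01, 0.03 and -0.00 over all genes. Of the genes of the ganglionic eminence progenitors more fell than rose. In AKR/J 4 of 10 fell (10.4% of all genes) and 0 rose, led by Gsx1 (-2.22), in C57BL/6J 6 fell (5.58%) and 0 rose, led by Gsx2 (-2.05 ± 0.35, adjusted p = 0.0143), and in Cav1-null 5 fell (12.8%), led by Gsx2 (-1.81 ± 0.34), while Olig2, an oligodendrocyte lineage factor, rose (0.82). Neural progenitor and proliferation genes fell in 9, 7 and 8 of 10, and Fabp7 rose in AKR/J and C57BL/6J.

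For specification and migration genes the late phase was mixed. In AKR/J 3 of 16 were higher and 5 lower, where 11.6% and 10.4% of all genes were. The counts were 1 and 4 in C57BL/6J (7.46% and 5.58% of all genes) and 3 and 6 in Cav1-null (14.5% and 12.8%). Npas1 rose in AKR/J (log2 fold change 1.42 ± 0.20) and Nr2f2, a factor of the caudal eminence, fell there (-0.91 ± 0.19). On d15, 11 of 16 genes of this list were lower in AKR/J and 13 of 16 in Cav1-null (edgeR), where 22.3% and 31.8% of all genes were. None was higher, and the list medians were -0.44 and -0.73, against 0.06 and 0.03 over all genes. Genes of the ganglionic eminence progenitors were lower in 4 of 10 and 8 of 10, led in Cav1-null by Gsx1 (-2.12 ± 0.27, adjusted p = 6.22e-05, edgeR), while Otx2 was higher in AKR/J (0.42). Genes for GABA uptake, breakdown and the inhibitory synapse were lower in 9 of 10 and 10 of 10, led by the glial GABA transporter Slc6a11 (-1.89 ± 0.41, adjusted p = 0.00854, and -1.70 ± 0.23, adjusted p = 0.000101). The same transporter had the largest rise of that list in the AKR/J early phase (4.49 ± 0.48, adjusted p = 0.00114), where 6 of 10 rose beside 14.8% of all genes.

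For genes of other neurons on d15, counts are set against the 22.3% of all genes that were lower in AKR/J and the 31.8% in Cav1-null. Glutamatergic genes were lower in 9 of 12 in AKR/J and 8 of 12 in Cav1-null, where Neurod6 was higher, and striatal projection neuron genes in 7 of 13 in each, with Drd1 higher in Cav1-null. Pan-neuronal genes were lower in 5 of 10 and 6 of 10, with 2 higher in Cav1-null. GABAergic genes of the midbrain, hindbrain and cerebellum were lower in 0 of 11 in AKR/J, where Tal2 was higher (log2 fold change 1.21), and in 8 of 11 in Cav1-null, led by Skor2 (-2.64). Cholinergic forebrain genes were lower in 0 of 6 and 4 of 6, and craniofacial genes in 0 of 12 and 9 of 11, led by Col1a1 (-6.73). On d17 none of these lists had a called gene in either strain, by edgeR, where 0.742% (AKR/J) and 0.0491% (Cav1-null) of all genes were called.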

How the data were processed

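RNA from 27 whole fetal brains, in 9 groups of 3 named by strain and day in the labels, was sequenced after poly-A selection and random priming. Per the submitters' processing notes, FastQC, cutadapt, fastp, STAR, edgeR and bedtools were used with GRCm39, with no versions given. The authors deposited unnormalised read counts per gene, and read counts per splice junction from which they had removed multi-mapped reads and overhangs shorter than 20 bases. The counting tool and its strand setting are not given in the sources used here. All sample columns were used.

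Counts were filtered with filterByExpr, scaled by the trimmed mean of M-values and tested with the quasi-likelihood test of edgeR 4.0.16 in R 4.3.3, with Benjamini-Hochberg adjustment over all genes tested and calls at 0.05. Each fit held the libraries compared, 6 for a phase or a strain and 12 for an interaction. Standard errors were derived from the F statistic as |log2 fold change| divided by its root. Read ratios (0.5 reads added) and junction shares were tested by exact permutation of days within strains (8000 arrangements, Python 3.11.15). DESeq2 1.42.0, other scalings, no filter, all 27 libraries in 1 model, a replicate block, removal of the GC trend and leaving out each library were alternatives. The tests were tried on simulated counts. GC content, exon lengths and positions came from GENCODE on GRCm39.

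The 10 genes and the comparison lists were chosen with earlier results of these data known. From each list, the called genes with the largest rise and fall were named, together with markers whose levels stand beside a result, Cav1, the antisense genes, and the 3 genes most like Gad1, Dlx2, Lhx6 and Sp8. Some genes that this rule names are not reported here. The labels call the libraries of a group replicates and the study calls them biological replicates, but nothing says whether they came from separate litters, so p-values cover the spread between these fetuses. Intervals cover counting error only.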

Additional observations from a re-analysis of the deposited data

How the results depend on the processing

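Over the 160 gene and comparison results there were 2520 alternative values, of which 2375 kept direction and side of the threshold, 92 newly passed it, 51 no longer did and 2 changed sign with a call on one side. The 2 were Gad1 in Cav1-null against C57BL/6J on d15 (0.0068 with library sizes alone, adjusted p = 0.920) and Dlx1 in the same comparison (0.40 with the GC trend removed, adjusted p = 0.00472). The early log2 ratio of Lhx8 to Lhx6 also changed sign, from 0.0166 to -1.0809 (adjusted p = 0.00438) without the third d12 library of every strain, which made 2 early ratios past the threshold in place of 1. The causes of the changes below were not tested, except where fewer samples or another filter make the alternative itself.

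The count of called genes among the 10 changed as follows, with the share of all genes called under the same setting. Without the filter on low counts it was 5 in the AKR/J early phase (3 as reported, 16.4% of all genes), 2 in the AKR/J late phase (1 as reported, 12.7%), 4 in the C57BL/6J late phase (2, 8.33%), 7 in AKR/J against C57BL/6J on d12 (2, 18.2%) and 1 on d17 (0, 2.51%). DESeq2 called 2 in the AKR/J late phase (26.6% of all genes), 7 in the C57BL/6J late phase (23.0%), 1 in AKR/J on d17 (6.57%) and 1 in the early interaction of AKR/J (4.78%, with 0 as reported). With all 27 libraries in 1 model the count was 0 in the AKR/J late phase (10.2% of all genes), 0 in the Cav1-null early phase (1 as reported, 13.1%) and 0 in the Cav1-null late phase (4 as reported, 3.56%), 7 in AKR/J on d12 (47.0%), 1 in AKR/J on d15 (5 as reported, 22.5%), 3 in Cav1-null on d15 (6 as reported, 35.1%) and 1 in the early interaction of AKR/J (7.12%). Removal of the GC trend gave 5 in the C57BL/6J late phase (17.4% of all genes). Leaving out the third d12 library of both strains gave 5 in AKR/J on d12 (15.0%), 1 in Cav1-null on d12 (0 as reported, 18%) and 1 in the early interaction of AKR/J (1.17%). This alternative, like removal of the GC trend, was chosen after seeing the data.

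Leaving out 1 library at a time gave 0 to 3 in the AKR/J late phase, 0 to 8 in the C57BL/6J late phase, 0 to 9 in the Cav1-null early phase, 0 to 5 in AKR/J on d12, 0 to 1 in Cav1-null on d12, 0 to 1 in AKR/J on d17, 0 to 2 in Cav1-null on d17, 0 to 1 in the early interaction of AKR/J and 0 to 6 in the late interaction of Cav1-null. The early change in the far Dlx6os1 share ran from -15.5 to -7.08 points, and was -10.6 points (adjusted p = 0.113) with the other annotated donor counted too, an alternative chosen after seeing the data. With 10 reads in place of 20 required, 1 alternative junction site could be tested in place of 0.

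The replicate block, which treats libraries with the same number as paired, gave 7 in AKR/J on d12 (34.0% of all genes) and 0 in the Cav1-null early phase (17.0%), and moved the other counts by at most 1.5 times. In the C57BL/6J late phase its 3 calls (Dlx2, Dlx5 and Sp8, beside 11.9% of all genes) shared no gene with the 2 reported (Gad2 and Dlx1). In none of the 12 comparisons were all 3 correlations of same-numbered libraries above 0.1 (range -0.50 to 0.43), so the numbers were not taken to pair the libraries. On d12 the third libraries of AKR/J and Cav1-null correlated with that of C57BL/6J at 0.28 and 0.27.

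Scaling by library sizes alone shifted the median over all genes, in log2 fold change, to 0.46 in the AKR/J early phase (74.7% of calls higher, against 51.4%), 0.17 in the C57BL/6J late phase (68.4% against 57.2%), -0.38 in AKR/J on d12 (30.2% against 50.6%), 0.23 in AKR/J on d15 (62.8% against 45.7%), 0.21 in Cav1-null on d15 (59.2% against 45.7%) and 0.58 in the early interaction of AKR/J (83.2% against 6.67%). With RLE size factors 28.3% of calls were higher in the late interaction of Cav1-null, against 13.0%. Depth limits Lhx8 most, which had 0 reads in the third AKR/J d12 library.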
